A study of Mus musculus with 15 samples.

Results

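Taf3, Taf7, Aff4, Ice1 and Phf3 encode proteins that act at the start and during the elongation phase of transcription by RNA polymerase II. They are 5 of the 55490 genes in the deposited count table, found there by gene symbol, and were chosen by their measured counts and levels in earlier results of the same data. Their levels and the folds between groups are therefore given as a description. RNA held by ribosomes was sequenced from eggs and embryos of B6D2F1 female mice that were heterozygous (Het) or knockout (KO) for Eif4e1b, which encodes an oocyte form of the mRNA cap-binding protein eIF4E. Every donor, Het controls included, had HA-tagged Rpl22 in its large ribosomal subunits, and the tag served to pull ribosomes down. The 15 libraries comprised 4 of M2 eggs (2 from Het and 2 from KO donors), 6 of PN5 zygotes (3 and 3) and 5 of early 2-cell embryos (3 and 2). A library held a pool of about 200 eggs or zygotes, while early 2-cell pools held about 100 embryos. The genotype is that of the female donor. The labels give no age, no genotype of the male and no cell type that drives the tag. They do not say that libraries of a group are from separate animals, and the p-values then measure only the spread between these libraries.

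TFIID is the general transcription factor that recognises core promoters and nucleates assembly of the polymerase on them. Taf3 is the subunit with a PHD finger that binds methylated histone tails at active promoters, and Taf7 binds Taf1, the largest subunit, and restrains its acetyltransferase activity until initiation. After initiation, the super elongation complex, for which Aff4 is the scaffold, brings the kinase P-TEFb to paused polymerase. Ice1 is a scaffold of the little elongation complex, which acts at small nuclear RNA genes, and Phf3 binds the phosphorylated tail of the polymerase. A mouse egg is transcriptionally silent and translates stored mRNA, and the embryonic genome is switched on between the zygote and the 2-cell stage, so mRNAs of the transcription machinery that sit on ribosomes before that time are of interest for genome activation.

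Levels are given as the share of a library's counts in protein-coding genes, in percent, with the group mean ± SD. Library totals ran from 93222 to 1201146 counts, but most counts lay outside protein-coding genes, which held between 0.696% and 5.10% of a library and from 1059 to 47397 counts. The early 2-cell libraries were the shallowest, with 1059 to 7795 protein-coding counts, against 5997 to 47397 in eggs and zygotes. A count of 0 therefore allowed a share of up to 0.283% in the smallest library and up to 0.00633% in the largest, taking 3 counts as the limit. Fragments amplified by PCR without molecular identifiers are not independent molecules, so limits and intervals cover counting error only. Of 38 egg and oocyte markers, 37 were in the table and 15 of these held a count, led by Dnmt1 with 442 and Npm2 with 351 counts. The zona pellucida genes Zp1, Zp2 and Zp3 had 0 counts. Eif4e1b itself had 0 counts in all 15 libraries, so the genotype labels could not be checked on it. In pools of whole eggs or embryos, fewer cells holding an mRNA and less ribosome-bound mRNA per cell cannot be told apart.

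The 5 genes held 3167 counts in all. Ice1 had 1737 counts in 7 libraries, Taf3 597 counts in 12, Phf3 406 counts in 11, Taf7 304 counts in 14 and Aff4 123 counts in 12. Counts were not scaled by transcript length, so levels are compared between groups and never between genes. All 5 passed the filter on low counts and were among the 495 genes tested, 425 of them protein-coding. Summed over the 5 genes, the share was 0.564% and 1.06% in M2 Het, 0.634% and 1.16% in M2 KO, 1.25%, 2.07% and 1.28% in PN5 Het, and 1.59%, 0.313% and 1.56% in PN5 KO. In early 2-cell embryos the sum was 0.0944%, 0.181% and 0.295% in Het and 2.09% and 0.264% in KO. The Het 2-cell libraries lay below every egg and zygote library. The high KO 2-cell library owed its value to 33 counts of Taf3 among 34 counts of the 5 genes.

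**Figure D1:**
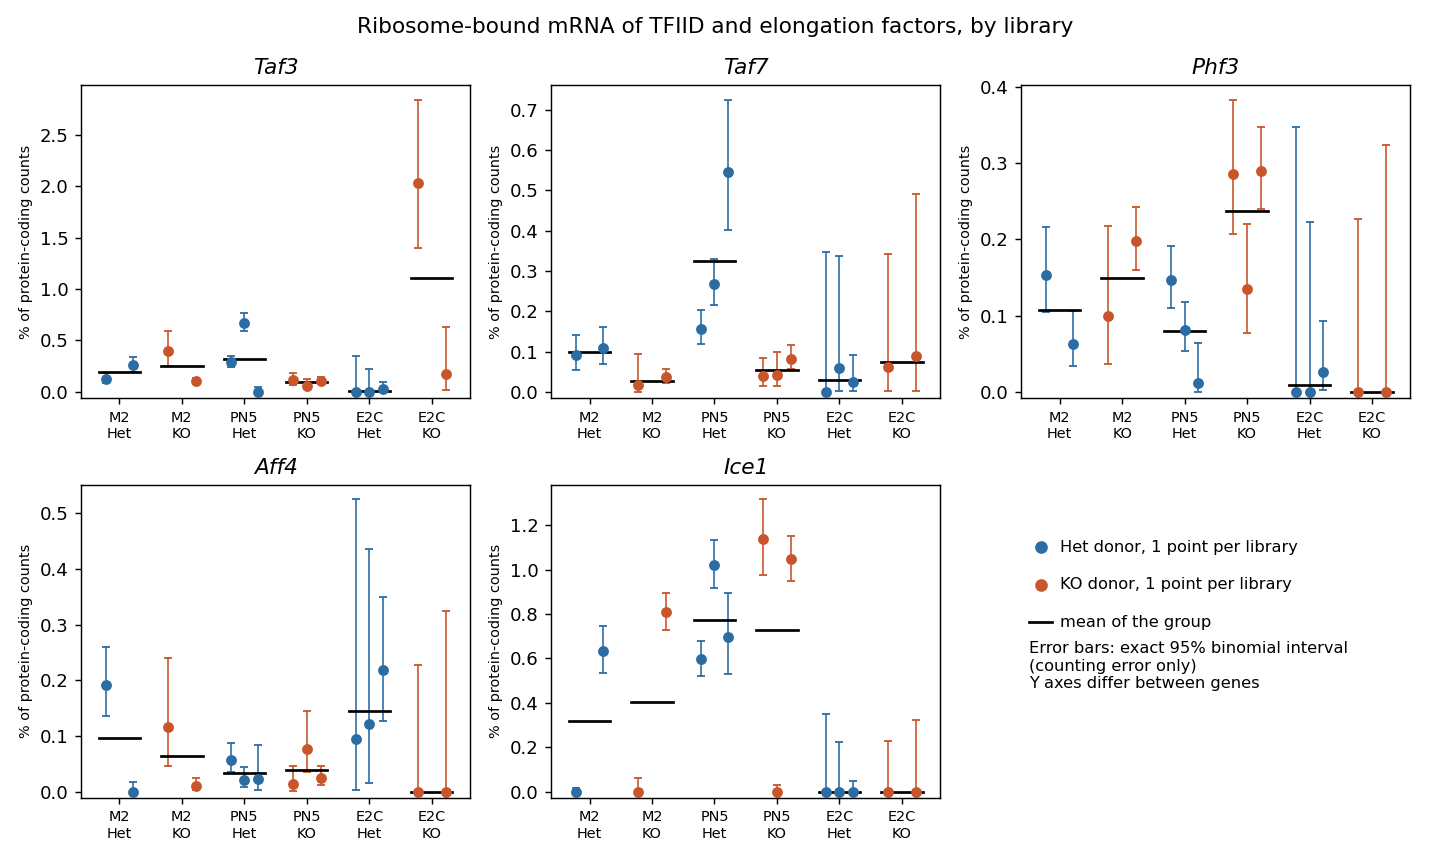
Share of protein-coding counts (percent, linear axis, scale differing by gene) of Taf3, Taf7, Phf3, Aff4 and Ice1 in each of the 15 libraries, by stage and donor genotype, with Het in blue and KO in orange. Points are libraries, black lines group means and bars exact 95% binomial intervals. Taf7 lay between 0.157% and 0.546% in PN5 Het and at or below 0.0825% in PN5 KO, and Ice1 was either above 0.5% or at 0.

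Taf7 (ENSMUSG00000051316, chromosome 18, 37640491 to 37644204, GRCm38) was lower in KO than in Het libraries in both eggs and zygotes, and in Het it was highest in zygotes. In M2 Het it took 0.0909% and 0.108% of protein-coding counts, from 19 and 24 counts, and in M2 KO 0.0167% and 0.0359%, from 1 and 17 counts. PN5 Het libraries had 0.157%, 0.268% and 0.546%, from 58, 89 and 47 counts. PN5 KO libraries had 0.0390%, 0.0423% and 0.0825%, from 6, 5 and 33 counts. Every Het library lay above every KO library at each of these stages. The means were 0.0993% ± 0.0120 (SD, n = 2) and 0.0263% ± 0.0136 (n = 2) in M2 Het and KO, and 0.324% ± 0.200 (n = 3) and 0.0546% ± 0.0242 (n = 3) in PN5 Het and KO. The exact 95% binomial interval of the lowest PN5 Het library, 0.119% to 0.203%, did not reach that of the highest PN5 KO library, 0.0568% to 0.116%.

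Such a separation was not rare among the 425 protein-coding genes tested. In M2 eggs 12.7% of them had every KO library below every Het library, and in PN5 zygotes 3.53% did. The KO–Het log2 fold change of Taf7 was -1.99 (SE 1.37) in M2 eggs, with an adjusted p of 1 by edgeR's quasi-likelihood test, and -2.53 (SE 1.13) in PN5 zygotes, with an adjusted p of 0.696. By edgeR 0% of the 495 genes, Taf7 included, passed an adjusted p of 0.05 for KO against Het at either stage. At an unadjusted p under 0.05, 6 genes passed in M2 eggs and 35 in PN5 zygotes. DESeq2 called 2 genes at each stage and limma-voom 0. The difference of Taf7 in zygotes was thus larger than the spread between libraries of a group but was not a call over all genes tested.

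Taken over eggs and zygotes together, Taf7 ran from 0.0909% to 0.546% in the 5 Het libraries (median 0.157%) and from 0.0167% to 0.0825% in the 5 KO libraries (median 0.0390%). It was 1 of 4 genes (0.941% of 425) whose KO libraries all lay below all Het libraries, with Hnrnpul2, Ddx24 and Ppfia1, and 1 gene, Cenpe, lay the other way (0.235%). The separation of Taf7 also held as a share of all counts of a library within each stage, but not over both stages together. By that share M2 Het library 2, at 0.00231%, lay below PN5 KO library 3, at 0.00370%. In PN5 zygotes that share was 0.00624% to 0.00741% in Het and 0.000985% to 0.00370% in KO. Markers of cumulus and granulosa cells, which surround the egg, also differed between the groups. Of 25 such markers 8 held a count, and their summed share was 0.171% to 0.871% in M2 Het and 0.0167% to 0.156% in M2 KO. In zygotes it was 0% to 0.103% in PN5 Het and 0.246% to 0.888% in PN5 KO, the opposite order. Most of that sum was Cyp11a1, the enzyme that starts steroid synthesis, with 561 of 773 counts, whereas Fshr, Lhcgr, Amh and Amhr2 had 0 counts. The part of these cells in the values of Taf7 was not tested.

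Between egg and zygote, Taf7 was higher at PN5 in both donor genotypes. The Het means of 0.0993% and 0.324% gave a log2 fold change of 1.57 (SE 1.26) and an adjusted p of 0.996 by edgeR, and the groups did not overlap. Of the 425 protein-coding genes, 7.53% had all PN5 Het libraries above all M2 Het libraries. In KO the PN5 libraries also lay above the M2 libraries, as for 4.71% of genes, but the lowest M2 value there rested on 1 count, and without that library the log2 fold change turned to -0.0168. For the egg-to-zygote comparison edgeR passed 0% of the 495 genes in Het and 0% in KO. At an unadjusted p under 0.05 it passed 17 and 21 genes, and DESeq2 called 4 and 1. The test of whether the KO effect on Taf7 differed between eggs and zygotes gave no call, as for 0% of the 495 genes by edgeR, with 26 at an unadjusted p under 0.05 and 0 by DESeq2.

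In early 2-cell embryos Taf7 had only 5 counts in 5 libraries. The Het libraries had 0, 1 and 2 counts, or shares of 0%, 0.0604% and 0.0257%, and the KO libraries had 1 count each, or 0.0616% and 0.0881%. Every Het 2-cell library lay below every PN5 Het library, as for 10.4% of protein-coding genes. In Het 2-cell libraries 1 and 2, however, the limit of 3 counts was 0.283% and 0.181%, above the lowest PN5 Het share of 0.157%. For these libraries the order is under the limit of counting, while in library 3 that limit was 0.0385%. The pooled share was 8.63 times lower than in PN5 Het, with a 95% counting interval of 2.91 to 42.2, and the fitted log2 fold change was -4.49 (SE 1.33), with an adjusted p of 0.183 by edgeR. DESeq2 gave a log2 fold change of -3.29 and an adjusted p of 0.0306 for this gene, which was 1 of 40 it called. In the same comparison edgeR called 0% of the 495 genes. Both KO 2-cell libraries lay above all Het 2-cell libraries as a share of protein-coding counts, as for 7.06% of genes. As a share of all counts they overlapped, at 0.00106% and 0.00104% in KO and 0% to 0.00117% in Het. At 0 to 2 counts per library the genotypes were not distinguishable for Taf7.

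Taf3 (ENSMUSG00000025782, chromosome 2, 9914552 to 10048609, GRCm38), the other TFIID subunit, varied widely between libraries of 1 group. M2 Het had 0.129% and 0.261%, from 27 and 58 counts, and M2 KO had 0.400% and 0.105%, from 24 and 50 counts. PN5 Het had 0.293%, 0.675% and 0%, from 108, 224 and 0 counts. The library at 0 held 8614 protein-coding counts, where 3 counts would be 0.0348%. PN5 KO was even, at 0.117%, 0.0593% and 0.110%, from 18, 7 and 44 counts. Means were 0.322% ± 0.338 (n = 3) in PN5 Het and 0.0954% ± 0.0315 (n = 3) in PN5 KO, the groups overlapped, and the KO–Het log2 fold change of -1.93 (SE 1.45) had an adjusted p of 1 by edgeR. Without PN5 Het library 2, the log2 fold change was -0.56.

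Taf3 was at 0%, 0% and 0.0257% in the Het 2-cell libraries, from 0, 0 and 2 counts, and at 2.03% and 0.176% in the KO 2-cell libraries, from 33 and 2 counts. Both KO libraries lay above all Het libraries, as for 7.06% of protein-coding genes. KO library 2, at 2 counts, was however under its limit of 0.264%. Het libraries 1 and 2, at 0 counts, allowed up to 0.283% and 0.181%, so their order against KO library 2 is under the limit of counting. The pooled share was 66.7 times higher in KO, with a 95% counting interval of 17.1 to 572. The KO–Het log2 fold change of 5.65 (SE 1.93) had an adjusted p of 0.888 by edgeR, and it was 2.79 without KO library 1. No gene passed this test (0% of 495), while 25 had an unadjusted p under 0.05, DESeq2 called 4 and limma-voom 0. The 33 counts of the single library were 2.03% of 1623 protein-coding counts, with an exact 95% binomial interval of 1.40% to 2.84%, and the other KO library had 2 counts, with an interval of 0.0213% to 0.635%. The KO result thus rested on 1 library.

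From PN5 to early 2-cell Het embryos, Taf3 went from 332 counts to 2. The pooled share was 22.2 times lower, with a 95% counting interval of 6.09 to 184. Groups overlapped because of the PN5 library at 0, and the log2 fold change of -5.65 (SE 1.87) had an adjusted p of 0.183 by edgeR. In KO, both 2-cell libraries lay above all PN5 libraries by share of protein-coding counts, as for 11.8% of genes. The lower, library 2, held 2 counts, under the limit of 3. As a share of all counts that library, at 0.00207%, lay within the PN5 KO range of 0.00174% to 0.00494%. The log2 fold change in KO was 1.94 (SE 1.57), with an adjusted p of 0.608 by edgeR, and it turned to -1.28 without KO 2-cell library 1. The KO effect on Taf3 differed between the 2-cell and PN5 stages by 7.59 (SE 2.42) on the log2 scale, with an adjusted p of 0.84 by edgeR. For this difference 0% of the 495 genes passed, 25 at an unadjusted p under 0.05 and 0 by DESeq2.

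The other TFIID subunits were nearly unmeasured. Of 17 symbols listed, 16 were in the table and 2 held any count: Taf11 with 14 counts in 4 libraries and Taf1 with 12 counts in 1 library. The TATA-binding protein and the other listed subunits in the table had 0 counts. None of these reached the filter for testing, so Taf3 and Taf7 were the TFIID genes compared at this depth.

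Aff4 (ENSMUSG00000049470, chromosome 11, 53350640 to 53421830, GRCm38), the scaffold of the super elongation complex, was the exception to the low 2-cell values in Het. Its share was 0.0569%, 0.0211% and 0.0232% in PN5 Het, from 21, 7 and 2 counts, and 0.0944%, 0.121% and 0.218% in Het 2-cell embryos, from 1, 2 and 17 counts. All Het 2-cell libraries lay above all PN5 Het libraries by this share, as for 5.41% of protein-coding genes. As a share of all counts the groups overlapped, at 0.000657% to 0.00996% in Het 2-cell embryos and 0.000266% to 0.00236% in PN5 Het. The pooled share was 4.99 times higher, with a 95% counting interval of 2.69 to 9.09. The log2 fold change of the fit was 0.94 (SE 1.57), with an adjusted p of 0.694 by edgeR. Of the 20 Aff4 counts in 2-cell libraries, 17 came from 1 library.

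Both KO 2-cell libraries had 0 counts of Aff4. Over their 2758 protein-coding counts a count of 0 allows a share of up to 0.109%, so KO was at least 1.33 times lower than the Het mean of 0.144% ± 0.0651 (n = 3), with an adjusted p of 0.897 by edgeR. KO below Het without overlap was seen in 4% of protein-coding genes at this stage. The limit of 0.109% is above the PN5 KO mean of 0.0381% ± 0.0336 (n = 3), so no fold can be given for KO between PN5 and 2-cell embryos. In eggs the libraries of each group disagreed, at 0.191% and 0% in M2 Het, from 40 and 0 counts, and 0.117% and 0.0105% in M2 KO, from 7 and 5 counts. In PN5 KO it was 0.0130%, 0.0762% and 0.0250%, from 2, 9 and 10 counts, which overlapped PN5 Het.

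Partners of Aff4 were measured better than those of TFIID. In the list of the super elongation complex, P-TEFb and its 7SK-bound inhibitor, 9 of 17 genes held a count and 2 were tested. Hexim1, which keeps P-TEFb inactive in the 7SK particle, had 81 counts, with means of 0.0313% ± 0.0363 (n = 3) and 0.0944% ± 0.0339 (n = 3) in PN5 Het and Het 2-cell embryos. No tested gene of the list passed in any comparison. The summed share of the list was 0.0783% to 0.441% in PN5 Het and 0.283% to 1.09% in Het 2-cell embryos, and these ranges overlapped.

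Ice1 (ENSMUSG00000034525, chromosome 13, 70588688 to 70637839, GRCm38), the scaffold of the little elongation complex, was found in an all-or-none pattern. It took 0.633% of protein-coding counts in M2 Het library 2, from 141 counts, and 0.808% in M2 KO library 2, from 383 counts, but 0 counts in library 1 of both groups. In PN5 Het it was 0.596%, 1.02% and 0.697%, from 220, 339 and 60 counts. In PN5 KO it was 1.14%, 0% and 1.05%, from 175, 0 and 419 counts. All 5 early 2-cell libraries had 0 counts. Where Ice1 was present its share of protein-coding counts ran from 0.596% to 1.14%, and its share of all counts from 0.00797% to 0.0470%.

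The split of Ice1 followed the size of the libraries. All 7 libraries with counts had totals of at least 609142, and all 8 without had totals of at most 409584. This included 3 egg and zygote libraries, with totals of 388676 to 409584. At the lowest share seen, those 3 libraries would have held 125, 35.7 and 70.4 counts, and the 2-cell libraries between 6.31 and 46.5. Among the 425 tested protein-coding genes, 2 (0.471%) had counts in exactly these 7 libraries, Ice1 and Acbd3, a Golgi protein. The Acbd3 share was 2.62 to 9.42 times that of Ice1 in the 7 libraries, so the ratio of the pair was not fixed. What sets the split was not tested.

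**Figure D2:**
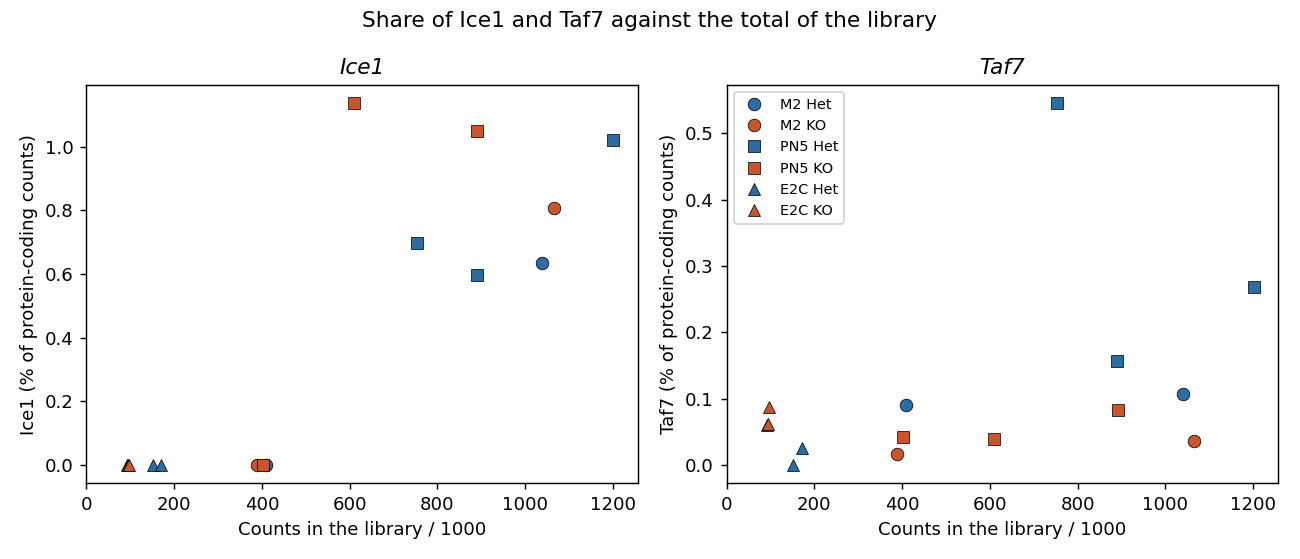
Share of protein-coding counts (percent) of Ice1, left, and Taf7, right, against the total counts of the library divided by 1000. Each point is 1 of the 15 libraries, with shape for stage and colour for donor genotype. Ice1 was 0 in every library with a total up to 409584 and between 0.596% and 1.14% above that, whereas Taf7 was counted in small libraries too.

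Ice1 did not separate KO from Het in eggs or zygotes. The means were 0.317% ± 0.448 (n = 2) and 0.404% ± 0.571 (n = 2) in M2 Het and KO, and 0.771% ± 0.222 (n = 3) and 0.728% ± 0.632 (n = 3) in PN5 Het and KO. Against PN5 Het, the Het 2-cell level was at least 27.0 times lower, taking 3 counts over the group as the limit, with an adjusted p of 0.204 by edgeR. No gene passed for this comparison by edgeR (0% of 495), 97 had an unadjusted p under 0.05, 79 of them lower, and DESeq2 called 40 and limma-voom 11. With no low-count filter Ice1 was called, with an adjusted p of 0.0262 by edgeR, and the number of all genes called by that fit is given below. Neither DESeq2 nor limma-voom called Ice1. Fits without 1 M2 or 1 KO 2-cell library left 1 library in a group, and their log2 fold changes ran from -10.3 to -10.1. Against PN5 KO, KO 2-cell embryos were at least 6.69 times lower, with an adjusted p of 0.554 by edgeR. A count of 0 in all 5 early 2-cell libraries was shared by 28.2% of the protein-coding genes tested. The other genes of the little elongation complex and of small nuclear RNA gene transcription held 156 counts over 8 of 24 genes in the table, and none was tested.

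Phf3 (ENSMUSG00000048874, chromosome 1, 30802342 to 30873922, GRCm38), which binds the polymerase tail, was counted in every egg and zygote library. It took 0.153% and 0.0629% in M2 Het, from 32 and 14 counts, and 0.100% and 0.198% in M2 KO, from 6 and 94 counts. In PN5 Het it was 0.146%, 0.0813% and 0.0116%, from 54, 27 and 1 counts, and in PN5 KO 0.286%, 0.135% and 0.290%, from 44, 16 and 116 counts. Groups overlapped at both stages. The KO–Het log2 fold change was 1.50 (SE 1.20) in PN5 zygotes, with an adjusted p of 1 by edgeR. The cumulus and granulosa marker sum was also higher in PN5 KO than in PN5 Het, as given above, and its part in Phf3 was not tested.

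In early 2-cell embryos Phf3 had 2 counts, both in Het library 3, a share of 0.0257%. The pooled Het share was 5.47 times lower than in PN5 Het, with a 95% counting interval of 1.47 to 45.9, and the log2 fold change of -3.55 (SE 1.48) had an adjusted p of 0.246 by edgeR. KO 2-cell embryos, at 0 counts, were at least 2.18 times lower than the PN5 KO mean of 0.237% ± 0.0880 (n = 3), with an adjusted p of 0.543 by edgeR. All KO 2-cell libraries lay below all PN5 KO libraries, as for 11.1% of genes. Their limits of 3 counts, 0.185% and 0.264%, were however above the lowest PN5 KO share of 0.135%, so the order is under the limit of counting. By edgeR 0% of the 495 genes passed in this comparison, 43 had an unadjusted p under 0.05, DESeq2 called 13 and limma-voom 0.

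Ordered by group mean, the highest level was in PN5 Het for Taf7 and Ice1, in PN5 KO for Phf3, in Het 2-cell embryos for Aff4 and in KO 2-cell embryos for Taf3. Few neighbours in these orders were further apart than the larger SD of the pair. For Taf7, PN5 Het above M2 Het was, and M2 Het above KO 2-cell embryos was too, but the latter rested on 1 count per KO library and is under the limit of counting. Neighbours among the lower groups, KO 2-cell embryos, PN5 KO, Het 2-cell embryos and M2 KO, were not. For Taf3, no neighbours among the 4 highest groups were, while M2 Het above PN5 KO and PN5 KO above Het 2-cell embryos exceeded the SD. The Het 2-cell mean of Taf3, 0.00855%, rested on 2 counts in 1 library and is under the group limit of 0.0285%. For Aff4 only the lowest step, PN5 Het above the KO 2-cell libraries at 0, exceeded the SD, and that step is under the limit of counting. For Phf3 it was PN5 Het above Het 2-cell embryos, with overlapping libraries, and for Ice1 no step. The Het 2-cell mean of Phf3, 0.00855%, also rested on 2 counts in 1 library and is under the group limit of 0.0285%.

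Set against all protein-coding genes, 4 of the 5 genes were lower in Het 2-cell embryos than in PN5 Het, with a median log2 ratio of mean shares of -3.50, where groups at 0 counts were set to 3 counts. Over the 373 tested protein-coding genes with a ratio, the median was -0.30 and 208 were lower. In KO, 2 of the 4 genes with a ratio were higher and 2 lower in 2-cell embryos than in PN5, with a median of -0.33. The median was 0.44 over the 276 of 425 tested protein-coding genes with a ratio, 157 of them higher and 119 lower. Genes at 0 counts in KO 2-cell embryos had no ratio where their PN5 KO mean lay under the limit of 0.109%, as for Aff4. Leaving these genes out can raise the median, so 0.44 does not describe all tested genes. The KO–Het ratios of the 5 genes had medians of 0.35 in eggs and -0.08 in zygotes, against -0.11 and 0.14 over the 399 and 420 genes with a ratio. Since the 5 genes were chosen with their levels known, these medians describe them only.

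**Figure D3:**
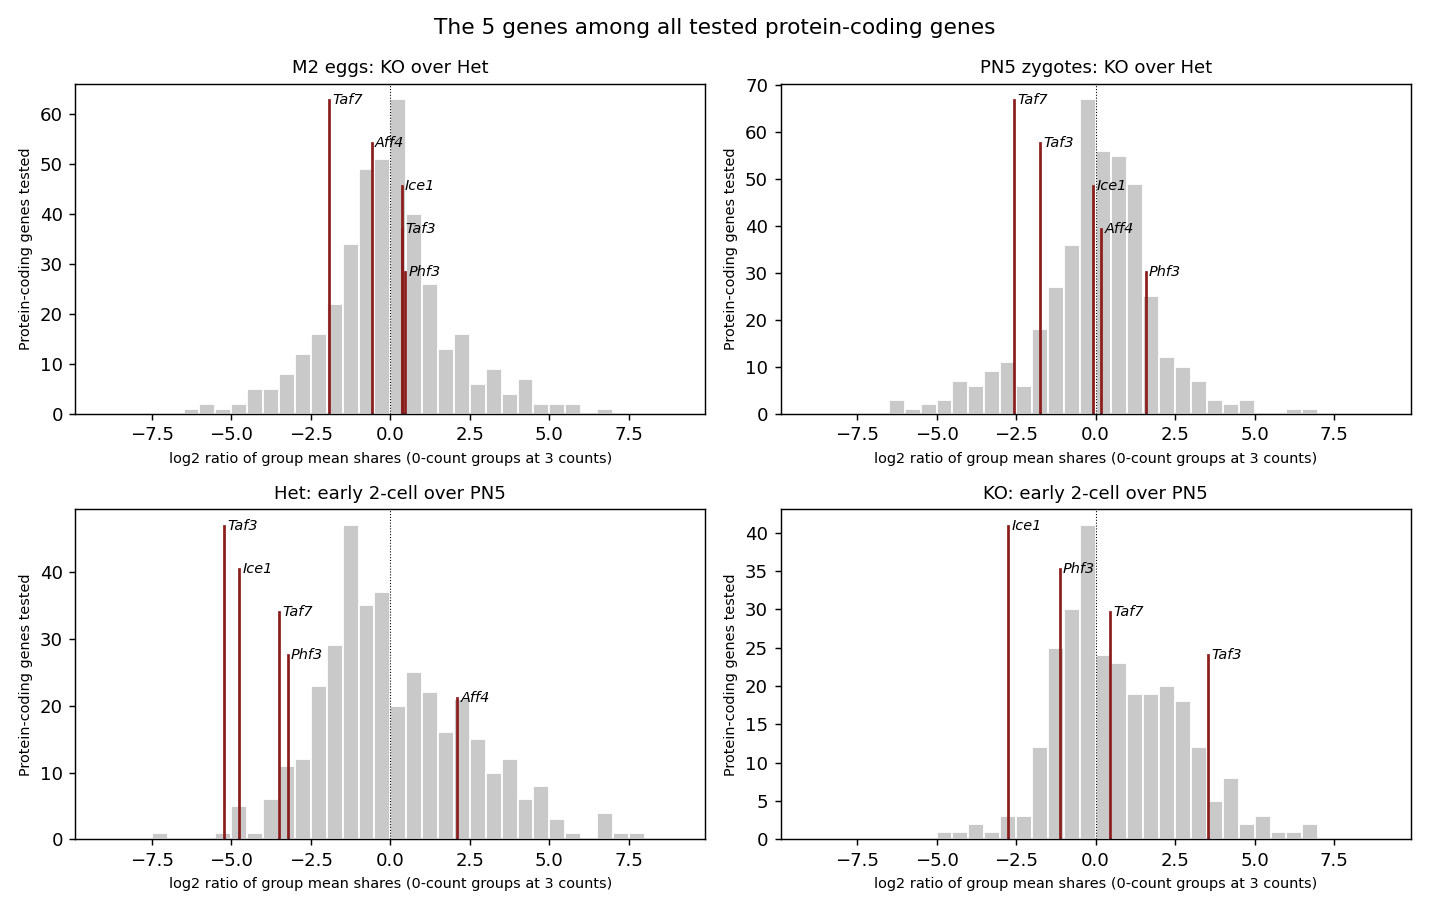
Histograms of the log2 ratio of group mean shares over the tested protein-coding genes (grey, vertical axis: number of genes), for KO over Het in M2 eggs and PN5 zygotes and for early 2-cell over PN5 in Het and KO, with the 5 genes as red lines. Groups with 0 counts are set to 3 counts, and line heights carry no value. Genes under that limit in both groups are left out. So are genes at 0 counts in a group whose limit lies above the mean of the other group, as for Aff4 in the KO 2-cell panel. Taf7 lay left of 0 in both KO over Het panels, and Aff4 was the gene right of 0 in the Het 2-cell panel.

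The tested genes of the wider elongation machinery did not all share 1 direction. In the list of other elongation factors, 20 of 36 genes held a count, 2083 in all, and 8 were tested, none of which passed in any comparison. Setd2, the methyltransferase that travels with the elongating polymerase, had means of 0.0731% ± 0.0634 (n = 3) in PN5 Het, 0.114% ± 0.100 (n = 3) in Het 2-cell embryos and 0.440% ± 0.249 (n = 2) in KO 2-cell embryos. Supt5, a subunit of the pausing and elongation factor DSIF, had 447 counts confined to 3 libraries. Supt16, a subunit of the histone chaperone FACT, had 288 counts in 6 libraries. From PN5 to early 2-cell Het embryos, 5 of the 6 tested members with a ratio were lower, Setd2 being the exception, with a median log2 ratio of -0.87. Over all tested protein-coding genes with a ratio, 208 of 373 were lower, with a median of -0.30. RNA polymerase II subunits, mediator and other general factors held only 212 counts over 14 of 68 genes, and none was tested.

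Genes of genome activation itself, transcription factors and 2-cell transcripts, held 112 counts over 9 of 52 genes in the table. Their summed share was 0.00478% ± 0.00676 (n = 2) and 0.00422% ± 0.00597 (n = 2) in M2 Het and KO, from 2 and 4 counts, and 0.0561% ± 0.0155 (n = 3) and 0.0626% ± 0.0416 (n = 3) in PN5 Het and KO. In Het 2-cell embryos it was 0.126% ± 0.144 (n = 3), from 23 counts, and in KO 0.251% ± 0.268 (n = 2), from 6 counts. Kdm5b, a histone demethylase, was the tested gene of the list and passed in no comparison. Its mean was 0.0396% ± 0.0266 (n = 3) in PN5 Het and 0.0614% ± 0.0532 (n = 3) in Het 2-cell embryos.

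**Figure D4:**
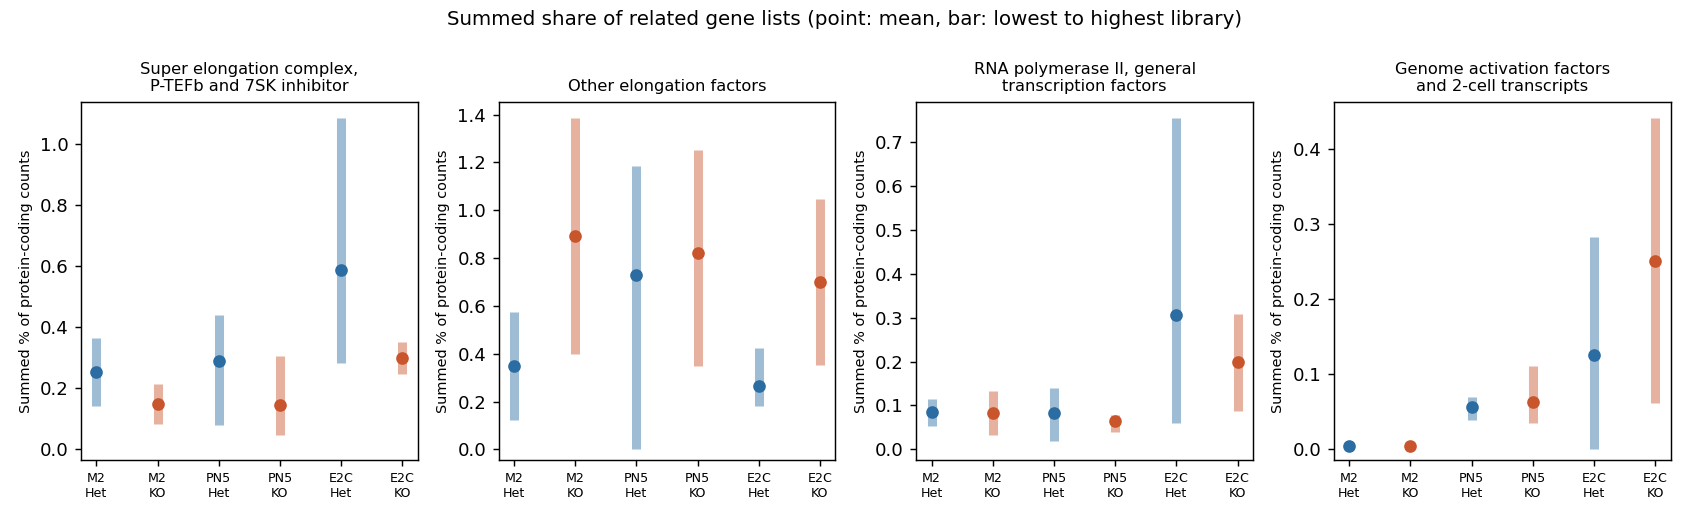
Summed share of protein-coding counts (percent, axes differ by panel) of 4 lists of related genes in the 6 groups, with points for group means and bars from the lowest to the highest library. The genome activation list was near 0 in both M2 groups and 0.0350% to 0.110% in PN5 KO, and the super elongation list spanned 0.283% to 1.09% in Het 2-cell embryos.

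Likeness to other genes was described by Pearson's r of log2(counts per 10000 protein-coding counts + 1) over the 15 libraries, among 416 tested protein-coding genes. The libraries share depth and stage, which raise such values. Ice1 was closest to Acbd3 (r = 0.996), then Fam107b (0.818) and Canx (0.784). Phf3 was closest to Phf14 (0.939), Cenpe (0.931), a kinetochore motor, and Prpf38b (0.903). Taf3 was closest to Ube2q1 (0.818), Eif5 (0.782) and Ankrd17 (0.765). Taf7 was closest to Psmd1 (0.748), a proteasome subunit, Ppp4r2 (0.742) and Akap12 (0.682). Aff4 was closest to Pds5b (0.788) and Stag1 (0.768), both of the cohesin machinery, and Tut7 (0.672).

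Among themselves the 5 genes did not move together. The correlation ran from -0.47 for Taf3 with Aff4 to 0.55 for Ice1 with Phf3 over all 15 libraries, and was 0.16 for the TFIID pair. Within the 10 egg and zygote libraries it was -0.33 for the TFIID pair, -0.67 for Taf7 with Phf3 and -0.82 for Aff4 with Ice1. The last value contains the split of Ice1 by library total: Aff4 was 0% to 0.191% over these libraries and Ice1 was at 0 in 3 of them.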

How the data were processed

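Per the labels' protocols, lysates were treated with RNase I (100 units, 45 min), ribosomes were immunoprecipitated through the HA tag (4 h) and libraries were amplified over 22 PCR cycles. The deposited table holds estimated counts per gene as whole numbers, with no scaling. The tools in the submitters' processing notes are STAR 2.7.6a, StringTie 2.1.4, cutadapt and deepTools 3.5.1, and the build is GRCm38. The step from alignments to counts, and the treatment of reads that match several genes or overlapping genes, are not given in the sources used here.

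Groups came from the labels. Symbols are those of the table, and biotypes and coordinates came from RefSeq for GRCm38.p6. Of the table's genes, 39101 were matched on the current symbol, 164 on an older one and 16225 on neither. Counts were rounded, which left them unchanged. Genes passing filterByExpr (minimum count of 10 over 6 groups) were fitted with edgeR 4.0.16 in R 4.3.3, with TMM factors and 1 robust quasi-likelihood model of the 6 group means on all 15 libraries, leaving 9 residual degrees of freedom. P-values were adjusted by Benjamini-Hochberg over all 495 genes and called under 0.05. The fold changes used a prior count of 0.125. SEs were derived from each fold change and its quasi-likelihood F statistic. Intervals of single shares are exact (Clopper-Pearson) at 95%, and a count of 0 was read as under 3 counts. The fit was tested on simulated counts.

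The 5 genes and the gene lists were chosen with earlier results of these data known. Genes named from each list were the up to 4 tested genes with the highest mean share, and for each of the 5 genes the 3 most alike by Pearson's r were named. Some genes below that rule (Taf11, Taf1, Acbd3 as a gene with the pattern of Ice1, and those separating Het from KO) were chosen after their values were seen. Some genes the rule names are not reported here. Alternatives were DESeq2 1.42.0, limma-voom (limma 3.58.1), other scalings and filters, single libraries left out and a replicate block. Same-numbered Het and KO libraries did not deviate together, so numbers were not taken to pair them.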

Additional observations from a re-analysis of the deposited data

Results flagged for a closer look

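For Taf7, the order of KO and Het libraries by share of protein-coding counts was not the same at each stage. Every KO library was below every Het library in M2 eggs. In early 2-cell embryos every KO library was above every Het library by that share, but not as a share of all counts, where they overlapped. The pooled 2-cell KO share was 2.54 times the Het share, with a 95% counting interval of 0.212 to 22.2 that spans both directions. The difference between these stages was not tested, and the 2-cell value rested on 5 counts in all.

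For Aff4, all Het 2-cell libraries were above all PN5 Het libraries by share of protein-coding counts, with a pooled share 4.99 times higher. As a share of all counts these groups overlapped. Both KO 2-cell libraries, at 0 counts, stood below all PN5 KO libraries. Of protein-coding genes, 11.1% had that order in KO, and 28.2% were at 0 in all 5 early 2-cell libraries. The limit set by 0 counts in KO 2-cell embryos, 0.109%, lay above the PN5 KO mean of 0.0381%, so no decrease in KO is shown. The test of the difference between the KO effects at these stages had an adjusted p of 0.957 by edgeR.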

How the results depend on the processing

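Of 1013 alternative fold changes of the 5 genes, 965 kept their direction and their side of the threshold, 8 became calls and 40 changed sign. Of 105 alternative group levels 95 moved by less than 1 SD, and the other 10 moved when the 10 leading mRNAs were left out of the denominator. DESeq2 called 2 and 2 genes for KO against Het in eggs and zygotes, 4 in early 2-cell embryos, 4 for PN5 against M2 in Het, 40 for early 2-cell against PN5 in Het, and 1 and 13 for the same steps in KO. limma-voom called 11 for early 2-cell against PN5 in Het, a mean of at least 50 counts 3, and no low-count filter 3. With no low-count filter, 1 gene was also called for KO against Het in 2-cell embryos, 1 for early 2-cell against PN5 in KO and 2 for the KO effect between those stages. Leaving out single libraries gave 0 calls for KO against Het in eggs, 0 to 8 in zygotes and 0 to 1 in 2-cell embryos, 0 to 4 and 0 to 32 for the Het steps, 0 to 1 and 0 to 3 for the KO steps, and 0 to 4 and 0 to 2 for the KO effect between stages. The cause of these shifts was not tested.

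Same-numbered libraries did not pair (correlations of their deviations from -0.324 to 0.104), and the fit with the replicate block called 0 genes in each comparison it could give. With the M2 numbers crossed, chosen after seeing the data, it called 0 genes for KO against Het at each stage. Sign changes for Aff4 were KO–Het in eggs, at 0.75 with the replicate block, 0.34 with M2 numbers crossed, and -2.66 to 6.22 with single libraries left out. In zygotes KO–Het for Aff4 was 0.0904 by DESeq2, 0.0217 with its size factors, 0.19 with library totals, 0.13 with protein-coding genes only and -0.58 to 0.37 with libraries left out. PN5–M2 for Aff4 was 0.52 in Het by limma-voom and -2.27 to 5.66 with libraries left out, and in KO 0.29 by limma-voom, 0.13 with library totals and -1.65 to 0.95. Its KO effect between these stages was -0.24 by limma-voom, -0.90 with the replicate block and -6.47 to 2.33 with libraries left out. Taf3 for PN5–M2 in Het was -0.61 by limma-voom and -0.49 to 1.73 with libraries left out, and for early 2-cell–PN5 in KO -1.28 to 2.46. Taf7 was 0.42 for early 2-cell–PN5 in KO with protein-coding genes only, -0.0168 to 1.95 for PN5–M2 in KO with libraries left out, and, for the KO effect between eggs and zygotes, 0.0941 with library totals and -1.48 to 0.42 with libraries left out. Left-out libraries moved Ice1 from -9.04 to 9.45 for KO–Het in eggs, -0.72 to 10.07 for PN5–M2 in KO and -9.44 to 9.05 for the KO effect. For Phf3 the ranges were -0.37 to 1.32 for KO–Het in eggs, -0.83 to 0.15 and -0.39 to 1.55 for PN5–M2 in Het and KO, and -0.19 to 1.87 for the KO effect. As shares of all counts, the ratio of means changed sign for Taf3 in KO–Het eggs (-0.16), Ice1 in KO–Het zygotes (0.31), Aff4 in PN5–M2 KO (0.12) and Taf7 in early 2-cell–PN5 KO (-0.91). All of these are log2 values. Levels per transcript length and protein features were not run for want of sequences. Depth limits the early 2-cell values most, with 1059 to 7795 protein-coding counts.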
